A study of Mus musculus with 45 samples.

Results

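The cytosolic ribosomal proteins are the protein parts of the ribosome that translates nuclear-encoded mRNA. The genes described here are those whose annotated symbol has the form of a ribosomal protein name (Rpl, Rps or Rplp followed by a number), without Rpl39l, each read by its brightest probe set. They are 44 of the 18193 genes measured, 21 of the small subunit and 23 of the large subunit, the 2 stalk genes Rplp0 and Rplp2 included. A further 110 probe sets name several genes with a ribosomal protein among them and were used for no gene, so the 44 do not cover the ribosome.

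The study measured murine embryonic stem cells (ESCs) of a male line of strain 129 and the hanging-drop embryoid bodies (EBs) formed from them, cell aggregates in which the cells of control lines turn into derivatives of the germ layers. The KD-labelled line was silenced for Strip2, the SCR line carried a scrambled control and the WT line was wild type. Each line was profiled with 3 Affymetrix mouse 430 2.0 arrays as ESCs and as EBs of 4, 8, 12 and 16 days, which gave 45 arrays in 15 groups. Whether a line is a single clone, which construct silenced Strip2 and whether the arrays of a group came from separate cultures are not given in the sources used here, so the p-values stand for the spread among these arrays, and that spread may be technical.

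Levels are log2 signals, in which a difference of 1 is a 2-fold change, and signals of different probe sets do not rank transcripts against each other. The probe set for Strip2, the silenced gene, read 2.66 to 3.86 on KD-labelled arrays, against 2.54 to 5.6 on SCR arrays and 2.5 to 3.23 on WT arrays. At day 16 it read 3.01, 3.41 and 3.43 in KD-labelled, 4.54, 4.4 and 5.6 in SCR cells and 3.0, 3.12 and 2.52 in WT cells, lower than SCR and not lower than WT. At day 4 it read 3.06, 2.91 and 3.14 in KD-labelled cells, above every SCR array (2.54, 2.56 and 2.62) and every WT array (2.54, 2.76 and 2.88), so the line is called KD-labelled throughout. Markers of the cells set the lines apart: the mean of 12 pluripotency genes was 11.04 ± 0.03 in KD-labelled, 6.36 ± 0.43 in SCR cells and 7.26 ± 0.41 in WT EBs of day 16 (SD, n = 3 arrays each), while 7 mesenchyme genes averaged 5.07 ± 0.40 in KD-labelled, 12.02 ± 0.05 in SCR cells and 12.26 ± 0.12 in WT EBs. Their part in the differences below was not tested, and in such bulk samples a change in the cells present and a change in RNA per cell cannot be told apart.

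Ribosomal proteins are made in step with ribosomal RNA, and their mRNAs are among the most abundant of a growing cell. Most begin with a run of C and T (the TOP motif), through which their translation answers to the kinase mTORC1. Pluripotent cells are known for active ribosome production, and several ribosomal proteins have paralogs used in particular tissues, such as Rpl3l in striated muscle and Rpl39l in male germ cells.

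The start-site region was set beside the data because the members share it whatever their level did. RefSeq (GRCm38.p6) lists a start for 38 of the 44 members among 27025 genes. A run of at least 6 C or T that reaches within 10 bases of the start stood in 25 of the 38 (65.8%), against 32.7% of all genes. The letters CGGAAG, the core of sites bound by ETS family factors, were found on either strand between 250 bases before and 50 after the start in 27 of the 38 (71.1%), against 18.8% of all genes. GCCATNTT, the core read by YY1, was found on either strand in 5 of the 38 (13.2%), against 6.96%. The windows below run from 40 bases before to 20 after the start, 5′ to 3′, with the longest C and T run near the start in capitals. They are shown for every member with an entry that was higher in KD-labelled cells than in both controls at 3 or more stages (Rpl37, Rpl12, Rpl3l, Rpl22, Rpl14, Rps18 and Rps3), for Rps6, which was lower, and for Rps4x, whose brightest probe set hardly differed between groups. Rpl3l and Rpl22 have a second start listed, not printed here.
Rpl37 (chr15:5116573-5116632, plus strand): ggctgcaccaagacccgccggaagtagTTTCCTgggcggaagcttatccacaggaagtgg
Rpl12 (chr2:32961672-32961731, plus strand): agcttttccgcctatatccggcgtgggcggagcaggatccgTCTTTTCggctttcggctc
Rpl3l (chr17:24727786-24727845, plus strand): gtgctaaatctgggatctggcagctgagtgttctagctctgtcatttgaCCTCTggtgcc
Rpl22 (chr4:152324396-152324455, plus strand): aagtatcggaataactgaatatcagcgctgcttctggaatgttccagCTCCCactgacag
Rpl14 (chr9:120571477-120571536, plus strand): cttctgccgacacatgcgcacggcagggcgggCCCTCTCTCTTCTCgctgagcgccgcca
Rps18 (chr17:33955646-33955705, minus strand): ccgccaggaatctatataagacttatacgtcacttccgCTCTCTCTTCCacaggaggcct
Rps3 (chr7:99483690-99483749, minus strand): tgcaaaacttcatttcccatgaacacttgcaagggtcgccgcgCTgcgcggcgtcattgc
Rps6 (chr4:86857348-86857407, minus strand): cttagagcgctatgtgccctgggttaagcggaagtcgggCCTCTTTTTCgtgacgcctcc
Rps4x (chrX:102189372-102189431, minus strand): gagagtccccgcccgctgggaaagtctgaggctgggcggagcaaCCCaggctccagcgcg
The run was 14 letters long in Rpl14, 11 in Rps18, 10 in Rps6, 7 in Rpl12 and 6 in Rpl37. It was 5 in Rpl3l, 5 in Rpl22, 3 in Rps4x and 2 in Rps3. Whether the run goes with the direction of a change was not tested.

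The members fell into 2 sets by signal, at a level of 12 chosen after the values were seen. For 33 of them the mean level over all arrays was 12.56 to 13.94, near the top of a scale whose highest value was 14.26. Their group means spanned 0.10 to 0.68 over the 15 groups (median 0.21), against a median span of 1.03 over all genes. The other 11 (Rps4l, Rpl37, Rpl12, Rps25, Rpl14, Rpl27a, Rps6, Rps27, Rpl39, Rpl3l and Rps16) had means of 2.79 to 11.19, and their group means spanned 0.22 to 3.2 (median 1.36). SDs of 3 arrays had a median of 0.04 in the bright set and 0.15 in the dim one. Rpl27a was an exception, with SDs of 0.26 to 1.03 beside a span of 0.74.

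**Figure D1:**
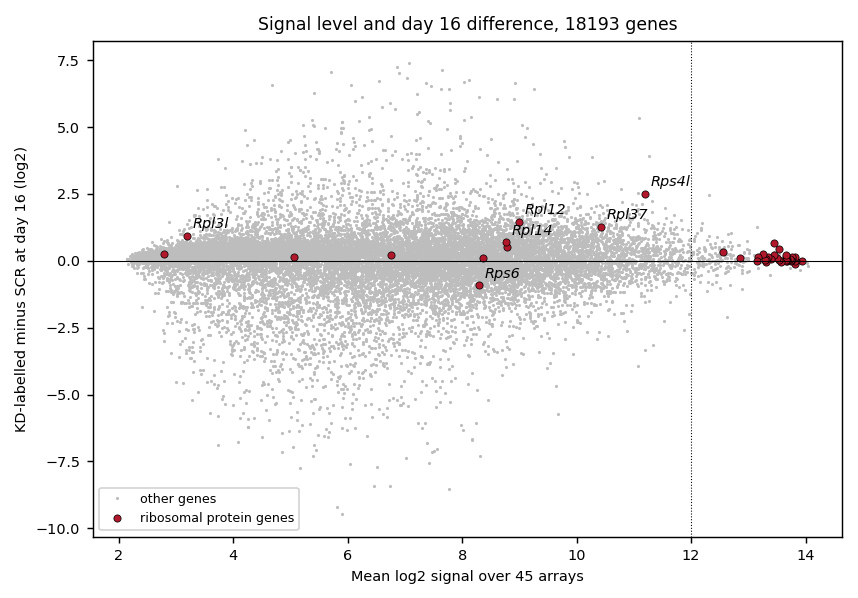
Mean log2 signal of each gene over 45 arrays (x axis) against the difference KD-labelled minus SCR at day 16 (y axis, log2), with 44 ribosomal protein genes as dark points over the other genes in grey. The 33 bright members lie between -0.10 and 0.66. Rps4l (2.51), Rpl12 (1.47), Rpl37 (1.28), Rpl3l (0.94), Rpl14 (0.70) and Rps6 (-0.92) lie outside that range at lower signals.

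A small span was not a property of every bright probe set. At day 16 the median size of the difference KD-labelled minus SCR was 0.06 over the 33 bright members and 0.27 over the 181 other genes with a mean of 12 or more, of which 69 rose and 43 fell. Of the 33 bright members, 9 rose and none fell in that comparison, where 39.8% of all genes rose and 26.8% fell. The small differences given here are those of the brightest probe sets. Some dimmer ones of the same genes rose over SCR at day 16, by 1.53 in Rps24 (mean level 9.40), 1.35 in Rps10 (5.94), 1.15 in Rps9 (7.67), 1.05 in Rpl41 (8.31) and 1.02 in Rpl35 (4.27). Other dimmer ones did not: that of Rps20 (5.87) fell by 0.61 at day 16 and by 1.07 in ESCs. Those of Rpl22 (9.79) and Rps3 (9.65) differed by -0.16 and 0.12 at day 16 and were not called. All were chosen after their values were seen. Saturation of the brightest probe sets as a part of this was not tested.

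Against SCR, ribosomal protein genes rose from day 8 on in more cases than they fell, although most were not called and the typical difference was small on the brightest probe set. A gene was called at an adjusted p under 0.05 (limma over all 18193 genes). In ESCs 2 members rose (Rpl37 by 0.43 and Rpl8 by 0.25) and 2 fell (Rpl14 by 0.70 and Rps6 by 0.32), where 12.3% of all genes rose and 11.3% fell. At day 4, 6 rose and 3 fell, against 22.6% and 19.9% of all genes. At day 8, 18 rose and 1 fell, against 28.0% and 24.7%. At day 12, 11 rose and 1 fell, against 31.0% and 24.6%. At day 16, 15 rose and 1 fell, against 39.8% and 26.8%. As a share of the 44, the rises lay above the background at day 8 and under it at the other stages, and the falls lay under it at every stage, but this order depended on scaling and probe set, as given next. The member that fell on days 8, 12 and 16 was Rps6.

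The median difference KD-labelled minus SCR over the 44 was -0.07 in ESCs, -0.04 at day 4, 0.14 at day 8, 0.06 at day 12 and 0.10 at day 16. Over all genes it was 0.03, 0.03, 0.07, 0.10 and 0.17 at the same stages. Large-subunit genes had 9 rises and no fall among 23 at day 16 (median 0.10), and small-subunit genes 6 rises and 1 fall among 21 (median 0.06). The split between rises and falls depended on the scaling. With cyclic loess across arrays the members gave 7 rises and 7 falls at day 8 (25.1% and 26.9% of all genes), 7 and 3 at day 12 (27.5% and 26.9%), and 9 and 13 at day 16 (30.5% and 29.9%). Centring each array on its median gave 2 rises and 1 fall in ESCs, and 26 and 1 at day 16 (47.0% and 24.4%). These scalings moved the day 16 median of all genes to 0.05 (loess) and 0.25 (centring).

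Other choices of probe set gave larger median differences from SCR on days 8, 12 and 16. Probe sets whose names end in none of _s_at, _x_at and _a_at cover 23 members. There the median difference from SCR was 0.57 at day 8, 0.31 at day 12 and 0.50 at day 16. This filter goes by suffix alone and drops Rpl8, Rpl10a, Rpl11 and Rpl6, whose probe sets end in _a_at. Whether a dropped probe set shares sequence with another gene was not tested. The probe sets kept gave 14 rises and 2 falls at day 8 (26.7% and 23.9% of all genes in that fit), 11 and 3 at day 12 (29.4% and 24.4%), and 12 and 2 at day 16 (39.2% and 26.3%). The mean of all probe sets of a gene gave 22 rises and 0 falls at day 8 (medians 0.22, 0.08 and 0.17 on these days; 28.4% and 23.5% of all genes), 16 and 2 at day 12 (31.6% and 24.1%), and 24 and 1 at day 16 (40.6% and 26.1%).

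WT as the control gave a similar course. Against WT, 0 members rose and 4 fell in ESCs, 4 rose and 2 fell at day 4, 17 rose and 0 fell at day 8, 10 rose and 1 fell at day 12, and 11 rose and 1 fell at day 16 (the same KD-labelled arrays entered both comparisons). Of all genes, 8.66% rose and 9.78% fell in ESCs, 19.2% and 19.9% at day 4, 26.0% and 23.9% at day 8, 27.1% and 23.6% at day 12, and 34.6% and 26.1% at day 16. The 4 that fell in ESCs were Rpl14, Rpl13a, Rps18 and Rpl11, with differences of -0.47, -0.21, -0.19 and -0.17. There 12 of 44 had an unadjusted p under 0.05, 11 of them lower, where 29.2% of all genes had one. Cyclic loess again changed the split, to 4 and 1 at day 4 (19.9% and 19.6% of all genes) and 7 and 3 at day 8 (23.1% and 26.2%). It gave 7 and 4 at day 12 (24.4% and 26.6%), and 7 and 5 at day 16 (26.3% and 29.2%). Some counts rested on single arrays: without replicate 2 of KD-labelled day 8 the rises against WT were 11, and without replicate 3 of KD-labelled day 4 the calls against SCR were 3 rises and 2 falls.

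The control lines differed in few members. SCR against WT gave 0 called members in ESCs, at day 4 and at day 8, where limma called 10.2%, 1.93% and 6.99% of all genes. At an unadjusted p under 0.05 there were 4, 1 and 5 members, against 22.2%, 13.4% and 18% of all genes. At day 12 Rps4l was lower in SCR by 0.70, and at day 16 Rps4l by 0.67 and Rpl8 by 0.21, where 14.7% and 8.11% of all genes were called. With cyclic loess 2 members were called in ESCs, and the day 16 call for Rps4l was lost without replicate 3 of WT (-0.54).

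**Figure D2:**
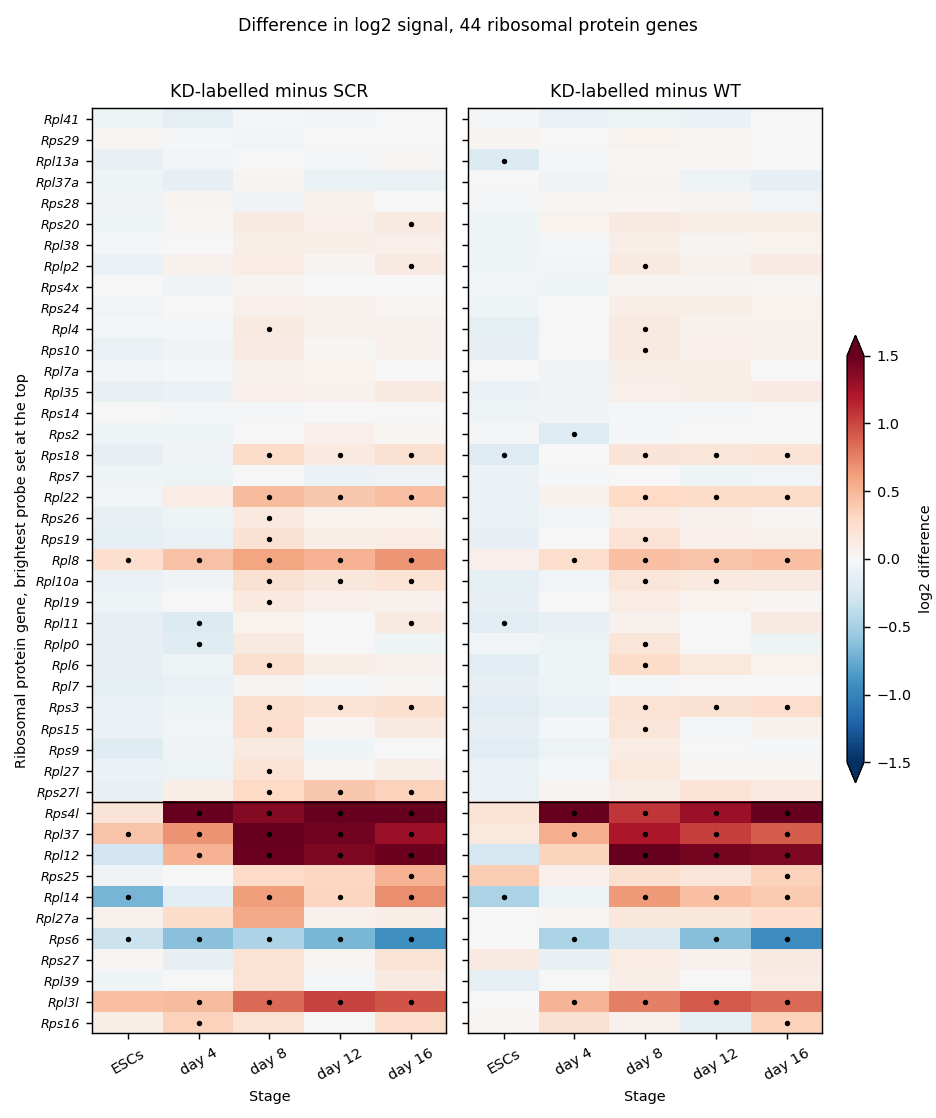
Log2 difference of KD-labelled from SCR (left) and from WT (right) for 44 ribosomal protein genes (rows, brightest probe set at the top) at 5 stages, with a dot where the adjusted p was under 0.05 and a line between genes with a mean level of 12 or more and the others. Bright members are pale in most cells, with Rpl8 at 0.66 and Rpl22 at 0.45 above SCR at day 16, and most strong colours lie below the line.

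**Figure D3:**
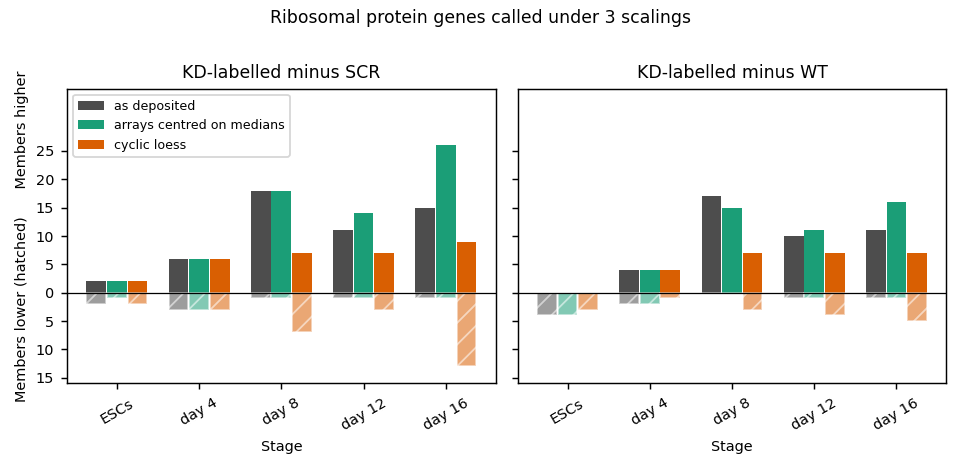
Number of ribosomal protein genes called higher (bars up) and lower (hatched bars down) in KD-labelled than in SCR (left) or WT (right) at 5 stages, under the deposited scaling, centring on array medians and cyclic loess. At day 16 against SCR the counts are 15 and 1 as deposited, 26 and 1 after centring, and 9 and 13 after loess.

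Members set apart from both controls in the same direction were few in ESCs and numbered 14 at day 8. Higher than both were 0 in ESCs, 4 at day 4, 14 at day 8, 10 at day 12 and 10 at day 16, against 5.84%, 17.6%, 23.1%, 24.1% and 31.8% of all genes. Lower than both were 1, 1, 0, 1 and 1 at these stages, against 6.28%, 16.8%, 21.0%, 19.8% and 23.1%. Over 3 or more stages 9 were higher (Rps4l, Rpl37, Rpl12, Rpl3l, Rpl8, Rpl22, Rpl14, Rps18 and Rps3) and Rps6 was lower. Rps4l, Rpl37, Rpl3l and Rpl8 were higher at all 4 EB stages. The share of all genes that meet these rules over several stages was not computed. These counts therefore name genes and cannot be set against a background. Rpl8, Rps18 and Rps3 were named after their values were seen.

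Rps4l, on chromosome 6, resembles the X-linked small-subunit gene Rps4x and is annotated by RefSeq as a transcribed pseudogene. At day 16 it read 11.93, 11.89 and 11.77 on KD-labelled arrays, against 9.36, 9.37 and 9.32 on SCR and 9.77, 10 and 10.29 on WT arrays. In ESCs the KD-labelled arrays lay above the SCR and overlapped the WT arrays, with 12.52, 12.57 and 12.56 in KD-labelled, 12.26, 12.41 and 12.4 in SCR cells and 12.23, 12.29 and 12.54 in WT. The difference from SCR was 1.5 at day 4, 1.38 at day 8, 1.99 at day 12 and 2.51 ± 0.16 (SE) at day 16, a 5.71-fold rise (adjusted p = 3.8e-16), and that from WT was 1.84 ± 0.16 at day 16 (adjusted p = 1.9e-12). Day 16 stood below ESCs by 0.69 in KD-labelled, 3.01 in SCR cells and 2.33 in WT cells. Rps4x itself stayed between 13.64 and 13.87 on all 45 arrays, and none of the comparisons made here called it on this probe set. Its other probe set, at a mean level of 4.39, was higher in KD-labelled cells at day 16, by 0.80 over SCR (adjusted p = 2.5e-09) and 0.83 over WT (adjusted p = 1.1e-09, limma over all probe sets).

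Rpl37, a zinc-binding protein of the large subunit, had its KD-labelled arrays above every control array at each EB stage. At day 16 it read 11.24, 11.28 and 11.03 in KD-labelled, 9.97, 10 and 9.74 in SCR cells and 10.16, 10.28 and 10.37 in WT cells. In KD-labelled cells it was higher at day 16 than in ESCs by 0.50 ± 0.15, while in SCR it was lower by 0.35 ± 0.15. Against SCR it rose by 0.67 at day 4, 1.57 at day 8, 1.45 at day 12 and 1.28 ± 0.15 at day 16 (2.43-fold, adjusted p = 3.1e-09), and against WT by 0.91 ± 0.15 at day 16 (adjusted p = 2.8e-06). Its only probe set naming no other gene carries the suffix for sequence that may be shared with other transcripts, as do many for this family, whose genes have near-identical processed copies; what such copies add to a signal was not tested. The ESC call was lost in 5 of the 6 fits that left out an array (0.34 without replicate 1 of KD-labelled, 0.41 without replicate 2 of KD-labelled, 0.44, 0.44 and 0.41 without SCR replicates 1, 2 and 3). The day 16 change in KD-labelled cells was lost without ESC replicate 3 (0.39). That in SCR was lost without ESC replicates 1 (-0.34), 2 (-0.34) or 3 (-0.37), without day 16 replicate 3 (-0.27) and with cyclic loess (-0.19).

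Rpl12 lies at the base of the ribosomal stalk, where translation factors bind. Its day 16 values were 9.47, 10 and 9.36 in KD-labelled, 8.07, 8.29 and 8.07 in SCR cells and 8.34, 7.97 and 8.32 in WT cells. As ESCs the lines overlapped, at 9.8, 9.57 and 9.59 in KD-labelled, 9.71, 10.23 and 9.89 in SCR cells and 9.71, 9.74 and 10.26 in WT. The controls thus separated from the KD-labelled line with differentiation: day 16 was below ESCs by 1.80 ± 0.18 in SCR and 1.69 ± 0.18 in WT, and by 0.04 ± 0.18 in KD-labelled cells (adjusted p = 0.89). At day 16 the gene was higher than in SCR by 1.47 ± 0.18 (adjusted p = 1.2e-08) and higher than in WT by 1.4 ± 0.18 (adjusted p = 3.8e-08). At day 4 the rise over SCR was 0.52, and its call was lost without SCR replicate 1 (0.33) or KD-labelled replicates 2 (0.45) or 3 (0.42).

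**Figure D4:**
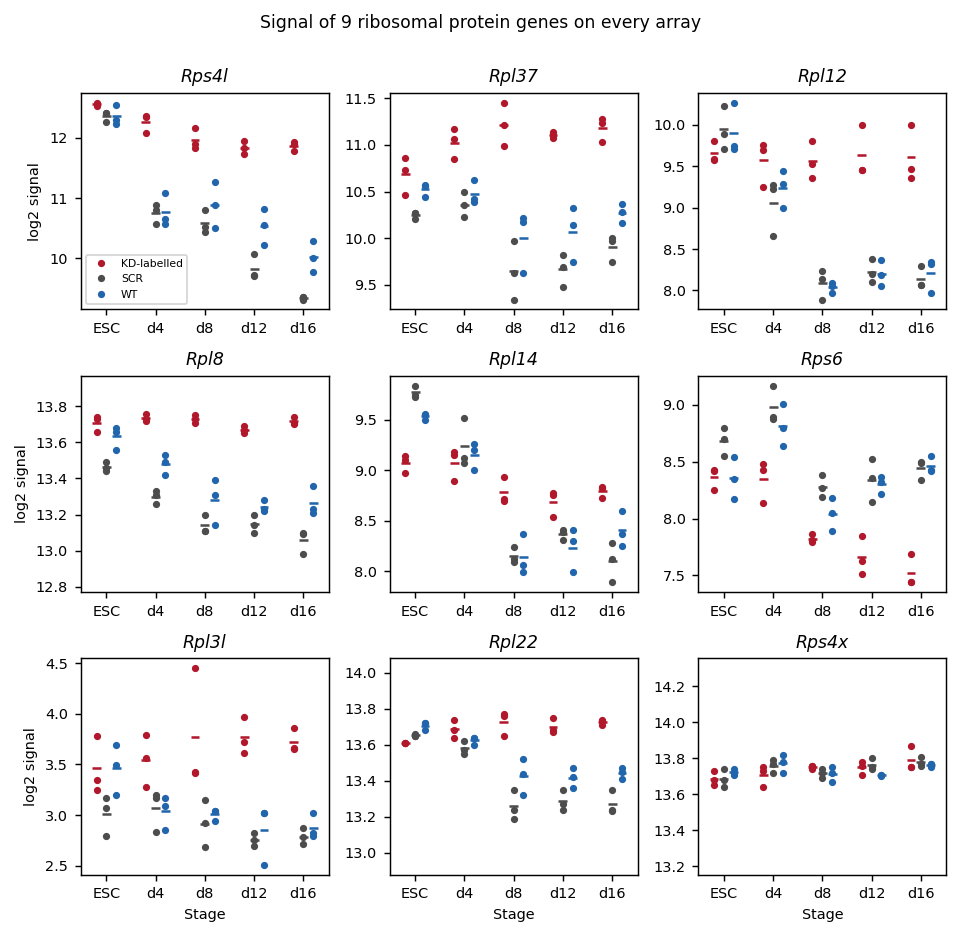
Log2 signal (y axis, scaled per gene) of 9 ribosomal protein genes on each of 45 arrays by stage (x axis), with points for arrays and bars for the mean of 3, KD-labelled left of SCR left of WT. Rps4l, Rpl12, Rpl14 and Rpl8 drop over time in the controls, Rps6 drops in the KD-labelled line, and Rps4x stays between 13.64 and 13.87.

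Rpl14, a large-subunit protein, was the member called lower than both controls in ESCs and higher than both at day 16. In ESCs it read 9.14, 8.97 and 9.1 in KD-labelled, below 9.75, 9.73 and 9.84 in SCR cells and 9.5, 9.56 and 9.55 in WT. At day 16 it read 8.73, 8.83 and 8.82 in KD-labelled, above 8.12, 8.28 and 7.89 in SCR cells and 8.25, 8.37 and 8.6 in WT. The difference from SCR was -0.70 ± 0.12 in ESCs (adjusted p = 2.4e-05) and 0.70 ± 0.12 at day 16 (adjusted p = 5.7e-06), and the groups overlapped at neither stage. Against WT it was -0.47 in ESCs and 0.39 at day 16 (0.31 and not called without replicate 1 of WT). Its day 12 rise over SCR (0.32) was lost without SCR replicate 2 (0.29) or KD-labelled replicates 2 (0.27) or 3 (0.28) and with cyclic loess (0.25).

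Rps6, the small-subunit protein phosphorylated by S6 kinases downstream of mTORC1, moved in the opposite direction. By day 16 the signals were 7.44, 7.69 and 7.44 in KD-labelled, 8.49, 8.5 and 8.34 in SCR cells and 8.43, 8.42 and 8.55 in WT cells, with no overlap. It fell by 0.92 ± 0.12 relative to SCR (adjusted p = 1.5e-08) and by 0.94 ± 0.12 relative to WT (adjusted p = 1e-08), and in KD-labelled cells day 16 was below ESCs by 0.84 ± 0.12. This probe set read 8.30 on average, and the other probe set that names only Rps6 read 3.21 and rose relative to SCR at day 16 by 0.39 (adjusted p = 0.0079 over all probe sets). The mean of both kept the day 16 fall but lost the calls against SCR at day 8 (-0.17) and in ESCs (-0.14). The ESC call of 0.32 was also lost with centring (-0.31), with the contrasted groups alone (-0.32), without KD-labelled replicates 1 (-0.34), 2 (-0.26) or 3 (-0.35), and without SCR replicates 2 (-0.31) or 3 (-0.26).

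Among the bright members, Rpl8, near the peptidyl transferase centre, differed most. Its day 16 arrays read 13.74, 13.7 and 13.71 in KD-labelled, 13.09, 13.1 and 12.98 in SCR cells and 13.23, 13.21 and 13.36 in WT cells. It rose over SCR by 0.25 in ESCs, 0.44 at day 4, 0.59 at day 8, 0.52 at day 12 and 0.66 ± 0.07 at day 16 (1.58-fold, adjusted p = 5.8e-11), and over WT by 0.45 ± 0.07 at day 16 (adjusted p = 2.9e-07). In the KD-labelled line it stayed level, with day 16 minus ESCs at 0.01 ± 0.07, against -0.41 ± 0.07 in SCR and -0.37 ± 0.07 in WT. With the contrasted groups alone, its calls over SCR in ESCs (0.25) and over WT at day 4 (0.26) were lost.

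Rpl22, an RNA-binding protein of the large subunit that ribosomes can do without, rose from day 8. Its day 16 signals were 13.74, 13.73 and 13.71 in KD-labelled, 13.35, 13.24 and 13.23 in SCR cells and 13.45, 13.47 and 13.41 in WT cells. It rose by 0.45 ± 0.06 over SCR (adjusted p = 1.2e-07) and 0.28 ± 0.06 over WT (adjusted p = 0.00025). Its 3 probe sets did not move alike: against SCR at day 12 they gave 0.41, 0.84 and -0.45, all called. The last of these was lower than SCR and WT in ESCs (-0.97 and -1.28) and at day 4 (-1.06 and -0.99). At day 16 it was lower than WT by 0.29 (adjusted p = 0.034, limma over all probe sets). With the mean of the 3 probe sets, the calls against WT were lost at day 12 (0.11) and day 16 (0.16). Its paralog Rpl22l1, known to take its place in mice that lack Rpl22, fell relative to SCR by 0.55 ± 0.13 at day 4, 0.59 ± 0.13 at day 12 and 0.42 ± 0.13 at day 16 (adjusted p = 0.0054), with day 16 arrays at 12.53, 12.64 and 12.46 in KD-labelled and 13.01, 12.85 and 13.03 in SCR.

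Bright members with smaller rises included Rps18, in the head of the small subunit, and Rps3, at the mRNA entry channel. At day 16 Rps18 read 13.81, 13.83 and 13.78 in KD-labelled, 13.6, 13.57 and 13.56 in SCR cells and 13.6, 13.58 and 13.65 in WT cells, a rise of 0.23 ± 0.06 over SCR (adjusted p = 0.00085). Rps3 read 13.41, 13.47 and 13.37 in KD-labelled, 13.22, 13.18 and 13.14 in SCR cells and 13.19, 13.16 and 13.13 in WT cells, a rise of 0.24 ± 0.06 over SCR (adjusted p = 0.0013). For both, day 16 was above ESCs in KD-labelled cells, by 0.28 and 0.26 on these probe sets. The Rps3 probe set at a mean level of 9.65 was lower than SCR and WT in ESCs (-0.62 and -0.51). It was also lower at day 4 (-0.4 and -0.47), all called (limma over all probe sets). Its differences from SCR at days 8, 12 and 16 were 0.07, -0.28 and 0.12, none called. The Rps3 probe set at 4.33 was called over SCR at day 16 alone (0.42), and over WT in ESCs (0.79) and at day 16 (0.47). In ESCs Rps18 read 13.48, 13.52 and 13.59 in KD-labelled cells, below all SCR arrays (13.61, 13.64 and 13.71) and all WT arrays (13.73, 13.66 and 13.77), with only the difference from WT called (-0.19). In Rps27l, a paralog of Rps27 induced by p53, the rise over SCR was 0.30 at day 8 (0.17 and not called with loess), 0.41 at day 12 and 0.34 ± 0.09 at day 16, and no difference from WT was called on this probe set. Its other probe sets were called over WT once each, by 0.21 on day 12 (adjusted p = 0.019) and by 0.20 on day 16 (adjusted p = 0.048; limma over all probe sets).

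Rpl3l, the striated-muscle paralog of Rpl3, was read by a dim probe set. The day 16 arrays read 3.86, 3.66 and 3.65 in KD-labelled, 2.71, 2.87 and 2.78 in SCR cells and 2.79, 3.02 and 2.82 in WT cells, near the lowest value of the scale (1.82). It rose by 0.94 ± 0.19 over SCR (adjusted p = 5.6e-05) and 0.85 ± 0.19 over WT (adjusted p = 0.00024). The 12 heart and muscle markers went the other way: their mean was 4.95 ± 0.09 in KD-labelled, 9.37 ± 0.38 in SCR cells and 7.05 ± 0.58 in WT EBs of day 16, where 0 of 12 rose and 9 fell relative to SCR. At day 4 its calls, 0.48 over SCR and 0.51 over WT, were lost without KD-labelled replicates 3 (0.35 and 0.38) or 1 (0.47 and 0.50), without SCR replicate 2 (0.36), and without WT replicates 2 (0.41) or 3 (0.53).

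Rps25, a small-subunit protein used in internal initiation of translation, fell with differentiation in all 3 lines. It read 8.5, 8.92 and 8.65 in KD-labelled, 8.18, 8.14 and 8.18 in SCR cells and 8.19, 8.57 and 8.28 in WT cells at day 16, so that KD-labelled overlapped WT. Day 16 was below ESCs by 0.78 ± 0.15 in KD-labelled, 1.36 ± 0.15 in SCR cells and 0.74 ± 0.15 in WT. The rise over SCR at day 16 was 0.52 ± 0.15 (adjusted p = 0.0025), and that over WT was 0.34 ± 0.15 (adjusted p = 0.045). The difference from WT was not called with cyclic loess (0.28), with the contrasted groups alone (0.34), without WT replicates 1 (0.26) or 3 (0.31), or without KD-labelled replicates 2 (0.23) or 3 (0.36).

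The parents of the paralogs other than Rpl22 varied little on their brightest probe sets, Rps4x on that one only, as given above. Rps27, paralog of Rps27l, had group means within a span of 0.27, and Rpl39, the widely used relative of Rpl39l, within 0.22. Their mean levels were 6.75 and 5.07, the second near the array medians of 5.02 to 5.18. At such signals a small span says little about the transcripts. Rpl7 at a level of 13.29 gave differences from SCR of -0.13 to 0.04, and none was called. Rpl39l, left out of the 44 by its definition, read 10.86, 10.85 and 11.01 in KD-labelled, 5.56, 4.73 and 4.69 in SCR cells and 6.82, 6.84 and 6.82 in WT EBs of day 16.

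Over the course from ESCs to day 16 the control lines and the KD-labelled line gave opposite balances with the brightest probe sets. In KD-labelled cells 13 members rose and 4 fell by day 16 (median 0.10), in SCR 1 rose and 13 fell (median -0.08), and in WT 0 rose and 14 fell (median -0.07). Of all genes 19.1% rose and 19.1% fell in KD-labelled, 29.1% and 42.7% in SCR, and 28.1% and 38.1% in WT, with medians of -0.05, -0.19 and -0.15. The falls in the controls were largest in the dim members Rps4l, Rpl12, Rpl14 and Rps25, and the other called falls lay between -0.58 and -0.15. In KD-labelled cells the called rises were of 0.14 to 0.50 and included Rps19, Rpl10a and Rpl11 (0.28, 0.22 and 0.21). These balances also depended on scaling. After centring they were 8 rises and 6 falls in KD-labelled (17.8% and 21.2% of all genes), 0 and 27 in SCR cells (26.2% and 51.2%) and 0 and 21 in WT (25.9% and 45.7%). With cyclic loess they were 10 and 4 (21.3% and 16.7%), 15 and 6 (33.2% and 30.1%), and 9 and 8 (32.6% and 26.6%), in the same order. With only probe sets that end in none of _s_at, _x_at and _a_at, which cover 23 members, the KD-labelled balance turned to that of the controls. It was 1 rise and 7 falls (median -0.14), beside 0 and 15 in SCR (median -0.85) and 0 and 15 in WT (median -0.61). Of all genes in that fit 17.2% rose and 18.4% fell in KD-labelled, 27.9% and 43.0% in SCR, and 26.9% and 38.4% in WT. Without ESC replicate 3 the KD-labelled counts were 8 and 3, and without day 16 replicate 2 WT had 9 falls.

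The difference between the lines in this change was itself tested. Relative to SCR, 14 members changed more upward in KD-labelled cells and Rps6 more downward (26.4% and 21.3% of all genes), and relative to WT 15 and Rps6 (23.8% and 21.5%). The median of this difference was 0.18 over members against either control, and 0.12 (SCR) and 0.09 (WT) over all genes. Besides genes named above, Rpl35 (0.24 and 0.21), Rpl11 (0.26 and 0.30) and Rpl10a (0.31 and 0.28) were called against both. After centring the counts were 25 and 1 against SCR (32.0% and 19.0% of all genes). With cyclic loess they were 6 and 1 against SCR (21.4% and 23.9%). Against WT loess gave 8 and 1, where 3642 of the 18193 genes changed more upward and 4437 more downward. As a share of the 44, the upward calls lay above the background after centring and under it with loess, against either control. The downward calls lay under it in each of these fits.

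On brightest probe sets, the genes that build the ribosome had larger differences in EBs than those of its proteins, a contrast given by counts and medians alone. Of 52 ribosome biogenesis genes, 7 rose and 1 fell relative to SCR in ESCs, against 12.3% and 11.3% of all genes. In EBs none fell, while 37 rose at day 4, 48 at day 8, 49 at day 12 and 48 at day 16. The medians in EBs were 0.48, 1.07, 1.0 and 1.11. Of all genes 22.6%, 28.0%, 31.0% and 39.8% rose and 19.9%, 24.7%, 24.6% and 26.8% fell at these stages. Dkc1, the pseudouridine synthase of H/ACA particles, rose by 2.13 ± 0.14 (adjusted p = 4.8e-16), Utp14a, of the small-subunit processome, by 1.89 ± 0.11, and Wdr12, of a complex for large-subunit maturation, by 1.78 ± 0.14 at day 16. By day 16 all 52 fell in both controls (median -1.57 in SCR and -1.35 in WT). In KD-labelled cells 44 fell and 1 rose (median -0.55). Of all genes 42.7% fell in SCR, 38.1% in WT and 19.1% in KD-labelled cells. The biogenesis list thus fell in all lines, and its change in KD-labelled cells was smaller. In the test of the difference 43 of its genes were called above SCR, against 26.4% of all genes.

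Mitochondrial ribosomal proteins form the separate ribosome inside mitochondria. On brightest probe sets, their median difference from SCR at day 16 stood between those of the 2 lists. For the 23 cytosolic members with probe sets that end in none of _s_at, _x_at and _a_at, that median was 0.50. Of 76 mitochondrial genes, 39 rose and 5 fell relative to SCR at day 16 (median 0.28), where 39.8% of all genes rose and 26.8% fell. Mrpl15 rose by 1.35 ± 0.09, Mrpl1 by 1.19 ± 0.15 and Mrpl40 by 1.11 ± 0.10. In ESCs 17 of the 76 rose and 0 fell (median 0.15), against 12.3% and 11.3% of all genes. By day 16 most fell in every line, 52 of 76 in KD-labelled, 61 in SCR cells and 57 in WT cells. Of all genes 19.1%, 42.7% and 38.1% fell in these lines, in the same order. Among cytosolic ribosome genes whose names follow another pattern, Fau, which encodes a small-subunit protein fused to a ubiquitin-like one, rose over SCR by 0.28 at day 8, 0.29 at day 12 and 0.23 at day 16. Rpsa rose by 0.23 at day 8 alone, Rps3a1 was called at no stage, and Rpl7l1 fell by 0.23 at day 4 alone.

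The choice of probe set moved these counts. Of the 44, 22 had more than 1 probe set that named no other gene, 97 in all. With the mean of all probe sets of a gene, 19 members rose and 2 fell relative to WT at day 16. In SCR 1 rose and 26 fell by day 16 (27.5% and 44.6%), and in WT 0 rose and 24 fell (26.6% and 40.3%). Probe sets of the same gene were called in opposite directions against SCR in Rpl22 at day 12 and Rps6 at day 16. Against WT this was so in Rpl22 at days 12 and 16, in Rps6 at day 16 and in Rps3 in ESCs.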

How the data were processed

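Levels are the authors' deposited log2 signals of 45037 probe sets on 45 arrays. The submitters' processing notes name RMA, Partek 6.6 and Affymetrix Expression Console, without saying which step each did. Array medians were 5.02 to 5.18, and replicate arrays correlated at 0.9888 to 0.9961. Of the probe sets, 34945 carried 1 symbol, 932 several and 9160 none. The brightest probe set with 1 symbol stood for each of 18193 genes, with no filter on level. Arrays were grouped by title; in each line 1 array titled day 8 has an ESC tag elsewhere and was kept at day 8. One limma model with a mean for each of the 15 groups was fitted (limma 3.58.1, R 4.3.3; 30 residual and 5.17 prior degrees of freedom), with Benjamini-Hochberg adjustment over all genes at 0.05. Standard errors are limma's. The fit was tested on simulated data for KD-labelled against SCR at day 16 over 18193 genes, with 50 genes changed at each size. Of these, 4% were recovered at 1.2-fold, 60% at 1.5-fold, 84% at 2-fold and 100% at 4-fold, with 6 false calls.

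The members, lists and alternatives were chosen with earlier results of these data known. Named are the paralogs and their parents, the largest differences called against both controls, the largest falls in WT and the widest ranges over stages; other names, such as Rpl8 and those behind counts of 5 or fewer, were added after values were seen. Same-numbered arrays were checked for pairing: the correlations of their deviations ran from -0.30 to 0.48 and all exceeded 0.1 in 3 of 18 comparisons (SCR against WT in ESCs and at days 8 and 12), so no block was used in the reported fit. In SCR against WT in ESCs the replicate block called 1 member in place of 0. Alternatives changed the scaling, probe set choice, filter, prior, replicate block, arrays and groups fitted. Sequences are from RefSeq, GRCm38.p6.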

Additional observations from a re-analysis of the deposited data

Results flagged for a closer look

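The change from ESCs to day 16 differed between the KD-labelled line and a control, by limma's test of the difference itself, for these named members (log2, adjusted p under 0.05 over all genes). Rps4l changed by 2.32 more than in SCR and 1.65 more than in WT. For Rpl12 the differences were 1.76 and 1.65, for Rpl14 1.4 and 0.85, for Rpl37 0.85 and 0.75, for Rpl22 0.50 and 0.38, and for Rpl8 0.41 and 0.37, each against SCR and then WT. For Rps6 they were -0.60 and -0.96. Against a single control, Rpl3l was called against WT (0.85), Rps25 against SCR (0.57) and Rps27l against SCR (0.45). Rps25's was lost with cyclic loess (0.49) and without SCR ESC replicate 2 (0.44), KD-labelled ESC replicate 3 (0.45) or KD-labelled day 16 replicate 2 (0.46), Rpl8's with cyclic loess (0.22 and 0.25), and Rps6's against SCR with the mean of its probe sets (-0.12). Their relation to the pluripotency markers, which also differed between the lines, was not tested.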

How the results depend on the processing

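Counts of called members (either direction) are given under each alternative, with the reported count in brackets. Median-centring gave 27 (16) for KD-labelled against SCR at day 16, 2 (1) for SCR against WT at day 12, 27 (14) for day 16 against ESCs in SCR and 26 (15) for the difference of this change from SCR. Cyclic loess gave 10 (17) for KD-labelled against WT at day 8, 2 (0), 3 (1) and 1 (2) for SCR against WT in ESCs, at day 12 and at day 16, and 7 (15) and 9 (16) for the difference of change from SCR and WT. Fitting the contrasted groups alone gave 2 (4), 10 (19) and 10 (16) against SCR in ESCs, at day 8 and at day 16, 1 (4) and 8 (17) against WT in ESCs and at day 8, 1 (2) for SCR against WT at day 16, 6 (17), 8 (14) and 8 (14) for day 16 against ESCs in KD-labelled, SCR and WT, and 10 (16) for the difference of change from WT. The mean of all probe sets gave 9 (4) and 25 (16) against SCR in ESCs and at day 16, 8 (4) and 21 (12) against WT, 2 (1) for SCR against WT at day 12, 27 (14) and 24 (14) for day 16 against ESCs in SCR and WT, and 25 (15) for the difference of change from SCR. With dim genes left out, KD-labelled against WT in ESCs gave 8 (4) and SCR against WT 3 (0). An intensity trend with a robust prior gave 10 (4) against SCR and 10 (4) against WT in ESCs, and 1 (0) for SCR against WT in ESCs and at day 8. Probe sets that end in none of _s_at, _x_at and _a_at cover 23 members and gave 1 (0) and 2 (1) for SCR against WT at days 8 and 12. They gave 8 (17) for day 16 against ESCs in KD-labelled cells, where 13 rises and 4 falls became 1 rise and 7 falls. The replicate block gave 1 (0) for SCR against WT in ESCs and moved no other count by over 1.5 times. Leaving out 1 array at a time gave 2 to 3 (4) and 5 to 9 (9) against SCR in ESCs and at day 4, 1 to 6 (4) and 11 to 17 (17) against WT in ESCs and at day 8, 0 to 2 (0), 0 to 1 (0), 1 to 2 (1) and 0 to 2 (2) for SCR against WT in ESCs and at days 8, 12 and 16, and 11 to 15 (17) and 9 to 14 (14) for day 16 against ESCs in KD-labelled and WT. The cause of these moves was not tested, apart from the fewer members or arrays that enter some fits. Among 1571 fits of called values of named genes, 1496 kept the call, 75 lost it and 0 changed sign. No sign could change in 98 fits without dim genes and 108 of contrasted groups alone. The same holds for 108 with an intensity trend and robust prior and 108 with a replicate block. All of these keep the log2 differences of the reported fit. With 3 arrays a group, changes of 1.2-fold were mostly missed in simulated data, where 50 genes changed at each size. In the data far more genes were called, so that recovery does not give the power for these members. Signals near the floor carry little information.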

Other observations

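Translation factors rose in more cases than they fell. Of 30 initiation, elongation and termination factors, 17 rose and 3 fell in KD-labelled relative to SCR EBs of day 16 (median 0.30), where 39.8% of all genes rose and 26.8% fell. Subunits of the scaffold factor eIF3 spanned that range: Eif3l rose by 1.06 and Eif3d by 1.01, Eif3a by 0.33, and Eif3f differed by -0.07 without a call. Eif2s2, of the factor that brings the initiator tRNA, rose by 1.04, and Eef1d, of the exchange factor for elongation, by 0.93. Eif5 fell by 0.42, Eif4h by 0.32 and Tpt1 by 0.21. Eif3a, Eif3f, Eef1d and the genes that fell were chosen after their values were seen.

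Genes of mTORC1 and of the control of TOP mRNAs went both ways, with 6 of 13 rising and 2 falling at day 16. Of all genes, 39.8% rose and 26.8% fell relative to SCR at that stage. Deptor, an mTOR inhibitor, rose over SCR by 2.39 at day 4, 3.16 at day 8, 2.86 at day 12 and 2.15 at day 16, Eif4ebp2, a translation repressor that mTORC1 inactivates, by 1.78, and Larp4, which binds poly(A), by 1.43. Rps16 was called above WT at day 16 (0.34) and above SCR at day 4 (0.34) on the dimmest probe set of the 44.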
